A study of Mus musculus with 4 samples.

Results

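The genes that carry glucose into the cell and break it down were followed in mouse osteoclast cultures with and without NFATc1. The rule for membership was function in glucose handling, and the members were chosen with earlier results of these data known. The set holds 36 genes of glucose uptake, glycolysis, pyruvate entry into mitochondria, the pentose phosphate pathway, glycogen turnover, the glycerol phosphate shuttle and the regulator Hif1a. Of these, 31 genes had 63 of the 22690 probe sets on the array, each probe set carrying a single gene symbol, and 3 control probe sets for Gapdh were added. Slc2a6, Hk3, Gpi1, Eno1 and G6pdx were not analysed here.

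All 4 arrays came from C57BL/6 mice that were NFATc1 fl/fl. The 2 wild-type arrays came from MxCre- mice. The 2 NFATc1-deficient arrays came from MxCre+ mice, in which polyIC induced the excision. Sorted marrow precursors (CD11b-, CD3e-, B220-, c-Kit+ and c-Fms+) were plated at 20000 cells and kept for 3 days in M-CSF and RANKL, which gives early osteoclasts per the labels. Each array stood for a pool of mice, 3 for replicate 1 and 4 for replicate 2, so the replicates are pools and not single mice. The limma p-values draw on the spread between pools and on that of other probe sets of like intensity. The Mx promoter answers to interferon in many cell types, so excision was not limited to osteoclasts. The sources used here do not say whether the wild-type mice received polyIC.

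In glycolysis, hexokinase traps glucose inside the cell by phosphorylating it, phosphofructokinase commits the sugar to breakdown, aldolase splits it, and the later enzymes yield ATP and pyruvate. The pentose phosphate branch takes glucose 6-phosphate aside to make NADPH and ribose, and glycogen stores glucose units. Several steps are served by isoforms from separate genes that differ in regulation and in the tissues where they are found. Osteoclasts are rich in mitochondria and are known to draw on both respiration and glycolysis as they form and resorb bone.

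Values are MAS5 signals, a linear intensity per probe set, and every change is NFATc1-deficient minus wild-type on the scale log2(signal + 23.3), which understates changes of dim probe sets. Signals of different probe sets are not comparable with each other. In these bulk cultures, fewer cells of a type and less RNA per cell cannot be told apart. Array medians ran from 111.6 to 130.0. Nfatc1 signal was 5433.6 and 6146.7 on the wild-type arrays and 3018.2 and 4097.9 on the deficient arrays (probe set 1417621_at, log2 change -0.71, SE 0.15, adjusted p = 0.0104). Without deficient replicate 1 its adjusted p was 0.0871. The position of the probes relative to the deleted exons is unknown, so the signal is no check of the excision. Of 8 measured osteoclast markers, 8 were lower, with summed signals of 34816.0 and 39499.9 in wild-type and 14052.0 and 19509.0 in deficient cultures. Proliferation markers were higher for 12 of 12 tested genes (summed signal 18472.0 to 19496.9 against 33576.8 to 36309.3). Granulocyte markers summed to 18073.9 on deficient replicate 1 and to 7263.1, 7370.9 and 8858.3 on the other arrays, with 4 of 12 tested genes higher. Macrophage and monocyte markers summed to 36966.8 and 40888.4 in wild-type and 32922.0 and 31905.7 in deficient cultures. Of these 9 genes, 2 were lower and 1 was higher. Over all genes, each at its brightest tested probe set, 11.9% were lower and 12.9% higher. Erythroid, lymphoid and stromal markers summed to at most 688.8 on any array, and only 2 genes of each of these lists had a tested probe set. Of these lists, Alas2, Col1a1 and Pdgfrb were below 23.3 on every array. The part of these cell differences in the results that follow was not tested. Xist signal was 3595.4 and 2690.0 on the replicate 1 arrays and 106.1 and 111.4 on the replicate 2 arrays (1436936_s_at), so the pools differed in sex by number. The members Pgk1 and Pdk3 are X-linked.

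Glucose handling genes changed in both directions without NFATc1. Hk1, Aldoc and Pfkp fell the most among the genes taken at their brightest tested probe set. Hk2, Slc2a1, Rpia, Gpd2 and Hif1a rose by smaller amounts, and these calls were all lost without the variance trend of the fit. Of 63 probe sets, 54 passed the filter on low values, and 12 of them fell (22.2%), 7 rose (13.0%) and 35 did not pass (limma, Benjamini-Hochberg threshold 0.05). Over all 13577 tested probe sets, 11.4% were lower and 12.8% were higher. The share of risen members therefore lay near the background. Taking the brightest tested probe set of each gene, 7 of 29 genes fell (background 11.9%) and 5 rose (background 12.9%). Both deficient signals lay below both wild-type signals for 23 of the 54 probe sets, where the background was 28.8%, and above them for 10, where it was 34.4%. The median change of the 54 was -0.06, beside 0.04 over all tested probe sets. Several probe sets of a gene share their target, so these counts are not counts of independent measurements. Since the members were chosen with earlier results known, the shares beside the background are descriptive only.

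**Figure D1:**
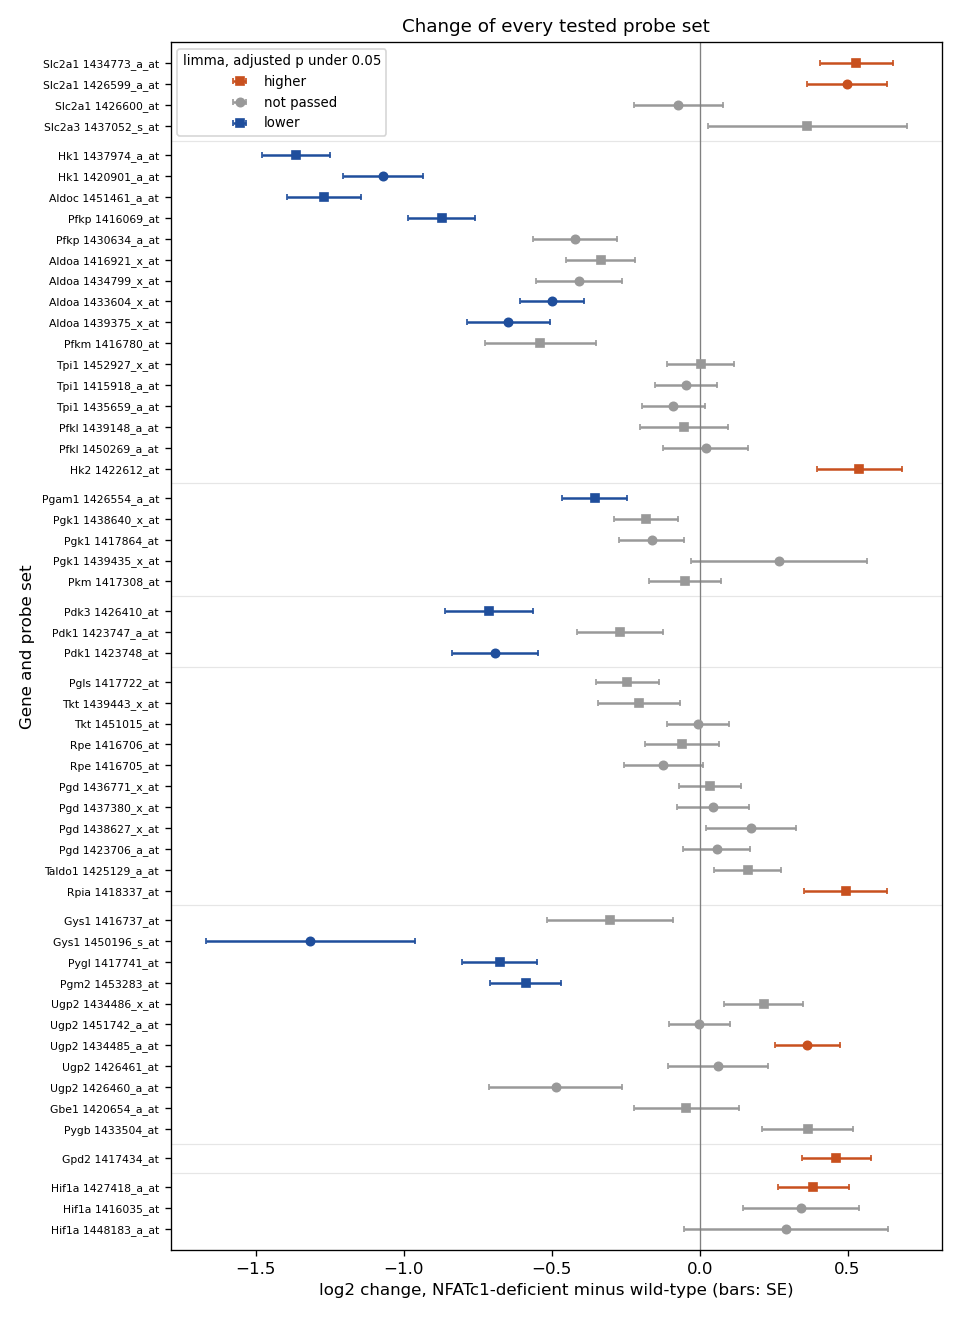
Log2 change of each of the 54 tested probe sets (x axis, NFATc1-deficient minus wild-type, bars are the SE of the limma fit), grouped by step of glucose handling in the order uptake, upper glycolysis, lower glycolysis, pyruvate dehydrogenase kinases, pentose phosphate, glycogen, glycerol phosphate shuttle and Hif1a. Squares are the brightest tested probe set of each gene, and the colours mark the 12 that fell and the 7 that rose; the Hk1 probe sets lie at -1.36 and -1.07 and Hk2 at 0.54.

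The hexokinases moved in opposite directions. Hk1, the isoform found in most tissues and bound to the outer mitochondrial membrane, had signals of 1655.2 and 1648.9 in wild-type and 597.6 and 659.1 in deficient cultures (1437974_a_at). The groups lay far apart and the replicates close together. Hk1 fell 2.63-fold in mean signal, from 1652.05 ± 4.45 to 628.35 ± 43.5 (SD, n = 2). On the log2 scale this was -1.36 (SE 0.12, adjusted p = 0.000236). The other probe set, 1420901_a_at, gave 756.3 and 783.6 against 336.6 and 373.8, a change of -1.07 (SE 0.13, adjusted p = 0.00113). Hk2, the inducible isoform typical of muscle, fat and dividing cells, had signals of 462.7 and 388.5 in wild-type and 614.3 and 639.9 in deficient cultures. Its groups did not overlap, and it rose 1.47-fold, from 425.6 ± 52.5 to 627.1 ± 18.1 (SD, n = 2; log2 change 0.54, SE 0.14, adjusted p = 0.0263). The Hk2 call was the weaker one: it was lost without wild-type replicate 2 or without either deficient array (adjusted p up to 0.117), without a filter and without the variance trend. Both Hk1 probe sets kept their call in all 12 alternatives.

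On each array the log2 difference between Hk1 and Hk2 removes what both share, such as scaling. It was 1.79 and 2.02 on the wild-type arrays and -0.04 and 0.04 on the deficient arrays. The Hk1 signal relative to Hk2 was thus 3.74-fold lower without NFATc1, a difference of -1.90 against a within-group SD of 0.12. An exact two-sided permutation test over the 4 arrays gave p = 0.333, the smallest that 2 against 2 arrays allow. A difference of this kind shows unequal change only, since the probe sets differ in brightness for their own reasons.

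The promoters of the most changed glycolytic genes are shown because the glycolytic genes are textbook targets of HIF-1, whose recognition core is ACGTG or GCGTG. Shown are the 250 bases before the start of transcription from RefSeq (GRCm38.p6), 5′ to 3′ in the direction of the gene, with each core on either strand in capitals. Hk1 and Aldoc have a pair of annotated starts each. The Hk1 windows are chr10:62340422-62340671 and chr10:62379909-62380158, minus strand, and Hk2 is chr6:82774455-82774704, minus strand. Aldoc windows are chr11:78322823-78323072 and chr11:78323948-78324197, plus strand. Pfkp is chr13:6648772-6649021, minus strand, and Slc2a1 is chr4:119108495-119108744, plus strand. The annotated span of Pfkp runs to 6649060 and that of Hk1 to 62379920. The Pfkp window, Hk1 window 1 and Aldoc window 2 therefore lie inside the annotated spans of their genes, and Hk1 window 2 overlaps the end of its span.
Hk1 window 1: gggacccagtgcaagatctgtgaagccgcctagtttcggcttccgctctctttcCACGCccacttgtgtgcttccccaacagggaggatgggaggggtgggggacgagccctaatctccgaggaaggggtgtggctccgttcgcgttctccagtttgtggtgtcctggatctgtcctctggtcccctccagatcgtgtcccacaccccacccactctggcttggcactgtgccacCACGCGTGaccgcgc
Hk1 window 2: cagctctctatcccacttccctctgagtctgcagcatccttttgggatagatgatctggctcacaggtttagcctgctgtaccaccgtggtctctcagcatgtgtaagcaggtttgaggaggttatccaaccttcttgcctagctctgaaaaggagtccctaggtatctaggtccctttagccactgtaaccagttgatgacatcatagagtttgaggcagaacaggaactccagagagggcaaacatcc
Hk2: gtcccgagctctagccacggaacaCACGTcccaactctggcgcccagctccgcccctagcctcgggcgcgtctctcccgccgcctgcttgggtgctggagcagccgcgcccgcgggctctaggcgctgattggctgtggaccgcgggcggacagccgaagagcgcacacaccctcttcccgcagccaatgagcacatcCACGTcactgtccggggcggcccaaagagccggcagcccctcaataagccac
Aldoc window 1: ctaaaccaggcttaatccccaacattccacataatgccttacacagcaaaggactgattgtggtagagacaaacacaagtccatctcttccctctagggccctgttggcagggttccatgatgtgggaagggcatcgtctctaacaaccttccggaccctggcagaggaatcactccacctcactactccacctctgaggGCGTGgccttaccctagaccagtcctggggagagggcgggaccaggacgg
Aldoc window 2: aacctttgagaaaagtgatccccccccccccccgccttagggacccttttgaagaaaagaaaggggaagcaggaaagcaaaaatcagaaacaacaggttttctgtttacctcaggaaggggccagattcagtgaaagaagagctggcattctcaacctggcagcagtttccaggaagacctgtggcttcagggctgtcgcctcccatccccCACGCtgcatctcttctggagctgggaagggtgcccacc
Pfkp: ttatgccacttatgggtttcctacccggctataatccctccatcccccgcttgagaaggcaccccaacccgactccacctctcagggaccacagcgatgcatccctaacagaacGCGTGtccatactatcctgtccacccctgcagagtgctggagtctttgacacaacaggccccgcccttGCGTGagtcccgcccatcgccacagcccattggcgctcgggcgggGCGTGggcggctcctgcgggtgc
Slc2a1: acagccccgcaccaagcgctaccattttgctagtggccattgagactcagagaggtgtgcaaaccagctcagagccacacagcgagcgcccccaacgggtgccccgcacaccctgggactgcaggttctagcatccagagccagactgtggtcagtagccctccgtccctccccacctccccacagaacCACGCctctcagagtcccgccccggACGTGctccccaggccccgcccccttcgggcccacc

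The HIF core occurred 3 times in the first Hk1 window, where the last pair overlap, and 0 times in the second. It occurred 2 times in Hk2, 1 time in each Aldoc window, 3 times in Pfkp and 2 times in Slc2a1. Genes that fell and genes that rose thus both carried it. Table entries matched 35 of the 36 genes, all but Slc2a3, with 50 windows, some of which overlap. Of these, 36 windows (72.0%) held a core, against 12679 of 32851 windows (38.6%) over all genes. Each HIF core holds the letters CG, and the windows over all genes were not matched for GC content. The printed windows ran from 49.6% (Hk1 window 2) to 69.6% GC (Hk2). The part of GC content in the difference of shares was not tested. The NFAT core GGAAA, searched on both strands, was found in 26 of the 50 windows (52.0%) and in 55.6% of all windows. The E-box CACGTG, which contains the HIF core, was found in 3 (6.0%) and in 6.02% of all. A match is a match of letters, and the data hold no binding measurements.

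Glucose uptake was represented by Slc2a1 and Slc2a3. Slc2a1 encodes GLUT1, the basal glucose transporter of most cells. Its brightest probe set, 1434773_a_at, read 877.8 and 979.6 in wild-type and 1442.0 and 1260.8 in deficient cultures, with both deficient arrays above both wild-type arrays. It rose 1.46-fold (log2 change 0.53, SE 0.12, adjusted p = 0.0157). Probe set 1426599_a_at rose by 0.50 (adjusted p = 0.0287), a call kept under 8 of the 12 alternatives. It was lost without a filter (adjusted p = 0.0522) and without the variance trend (0.0700). It was also lost without wild-type replicate 1 (change 0.41) and without deficient replicate 1 (0.44). The remaining one, 1426600_at, overlapped between genotypes, with 479.5 and 414.3 against 398.0 and 449.4 (-0.07, adjusted p = 0.777). Without deficient replicate 1 the brightest Slc2a1 probe set had an adjusted p of 0.0869. Slc2a3, which encodes the high-affinity transporter GLUT3, was dim: its tested probe set read 71.8 and 47.5 against 112.4 and 58.9, which overlap (0.36, adjusted p = 0.481). Its other 3 probe sets were below the filter, with signals from 3.1 to 45.1.

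Phosphofructokinase isoforms differed in their change. Pfkp, the platelet-type subunit, read 1337.9 and 1418.5 in wild-type and 746.2 and 738.1 in deficient cultures (1416069_at). The 2 groups were clearly apart, and Pfkp fell 1.86-fold (log2 change -0.87, SE 0.11, adjusted p = 0.00122). Its dimmer probe set had the same direction without passing (-0.42, adjusted p = 0.0619). Pfkm, the muscle-type subunit, read 378.3 and 286.9 against 224.4 and 215.2, with no overlap, but did not pass (-0.54, SE 0.19, adjusted p = 0.0684) and did without wild-type replicate 2 (adjusted p = 0.0246). Pfkl, the liver-type subunit, overlapped at both probe sets, with 546.7 and 447.7 against 480.3 and 471.9 at the brighter (-0.05, adjusted p = 0.833). Pfkfb3 makes the activator fructose 2,6-bisphosphate, and both of its probe sets were below the filter. They read 67.9, 61.5, 34.9 and 82.0 (1456676_a_at) and 36.1, 28.8, 56.3 and 52.4 (1416432_at) in the order wild-type 1 and 2, deficient 1 and 2.

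Both aldolase genes had probe sets that fell. Aldoc, the brain-type aldolase, read 1060.7 and 1081.0 in wild-type and 454.7 and 408.1 in deficient cultures (1451461_a_at). It fell 2.48-fold, from 1070.85 ± 14.4 to 431.4 ± 33.0 (SD, n = 2; log2 change -1.27, SE 0.13, adjusted p = 0.000431). A second Aldoc probe set was below the filter (43.8 and 26.7 against 23.8 and 8.8). Aldoa, the ubiquitous aldolase, had no overlap between genotypes at any of its 4 probe sets, with changes from -0.65 to -0.33. Of these, 1439375_x_at (-0.65, adjusted p = 0.0115) and 1433604_x_at (-0.50, adjusted p = 0.0114) fell. The brightest, 1416921_x_at, read 7773.9 and 9224.9 against 6547.1 and 6877.8 and did not pass (adjusted p = 0.0713), but passed without wild-type replicate 1 (-0.46, adjusted p = 0.00365) and with quantile normalization (adjusted p = 0.0221). All 4 are of the type marked _x_at, whose probes can match similar sequences, so the Aldoa values may hold signal of near copies. The brightest tested probe sets of Tpi1, Pgk1, Pgd, Tkt and Ugp2 are of this type too. Both Aldoa calls were lost without deficient replicate 1, with adjusted p of 0.0511 for 1439375_x_at and 0.0923 for 1433604_x_at, and the latter also without deficient replicate 2 (0.0545) and with median scaling (0.0903). Tpi1, triose phosphate isomerase, overlapped at all 3 probe sets, with changes from -0.09 to 0.00.

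**Figure D2:**
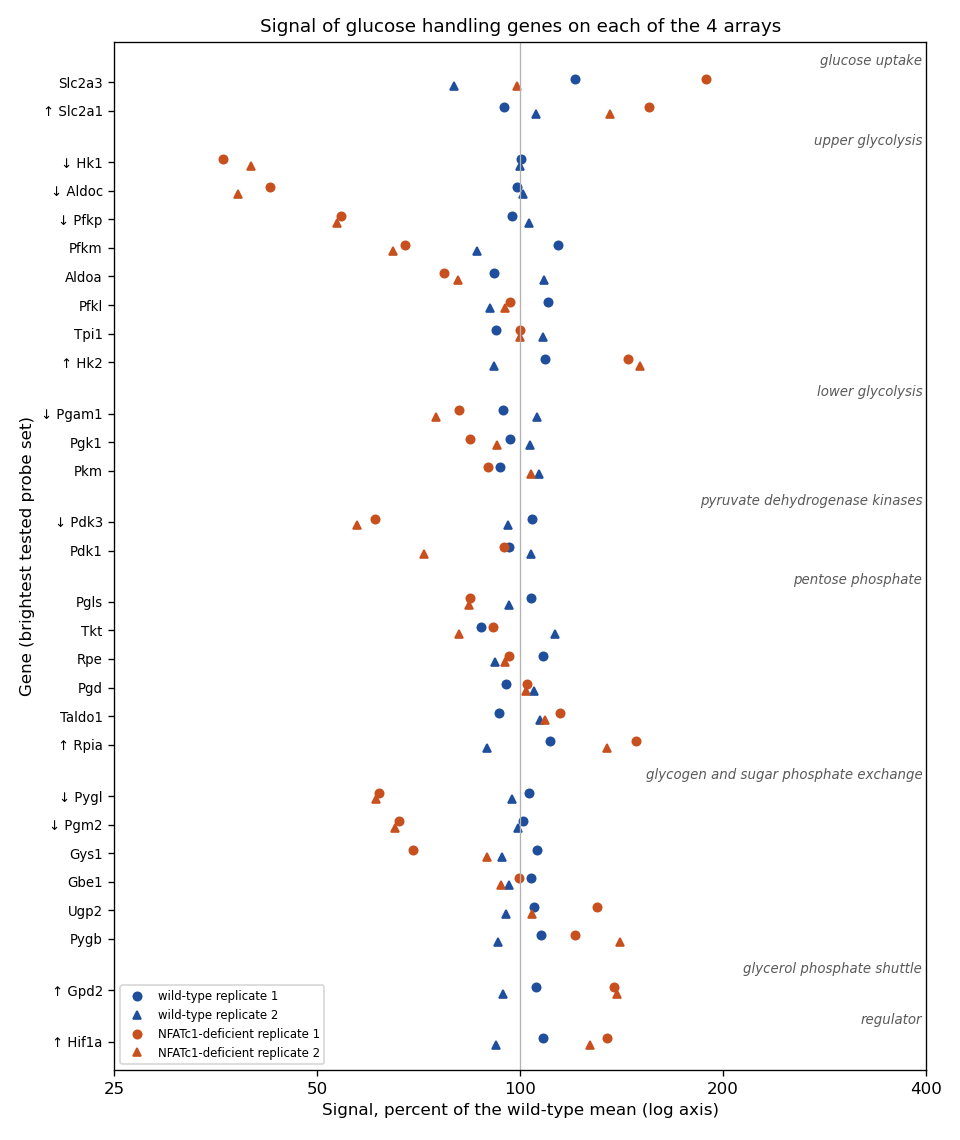
Signal of the brightest tested probe set of each of 29 genes on each array (x axis, percent of the wild-type mean of that probe set, log axis), grouped by step. Arrows mark the 7 genes that fell and the 5 that rose. The deficient arrays of Hk1, Aldoc and Pfkp sit well left of the wild-type arrays (38.0%, 40.3% and 53.8% of the wild-type mean), and those of Tpi1, Pfkl and Pgd among them.

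Most of lower glycolysis differed little. Pgam1, phosphoglycerate mutase, read 4426.5 and 4972.3 in wild-type and 3816.2 and 3521.4 in deficient cultures. It fell 1.28-fold and passed narrowly (log2 change -0.35, SE 0.11, adjusted p = 0.0467). The call was lost under 6 of the 12 alternatives, median scaling and 3 of the 4 left-out arrays among them. Pgk1, phosphoglycerate kinase, read 10539.3 and 11310.6 against 9205.2 and 10074.0 at its brightest probe set, with no overlap (-0.18, adjusted p = 0.274). Within replicate number 1 the change was -0.19 and within number 2 it was -0.17. At 1417864_at it was -0.16 (adjusted p = 0.335). The remaining probe set, 1439435_x_at, read 1768.4 on wild-type replicate 1 and 3981.3, 3089.5 and 3317.4 on the others (0.27, adjusted p = 0.565). Without wild-type replicate 1 its change was -0.31, and without wild-type replicate 2 it was 0.85 (adjusted p = 0.000136). Pkm, pyruvate kinase, read 5701.9 and 6501.0 against 5458.7 and 6338.4, which overlap (-0.05, SE 0.12, adjusted p = 0.809). Eno2, the neuronal enolase, was below the filter, with signals from 3.6 to 6.2. The Gapdh control probe sets differed by less than their spread: the 3′ set read 10131.6 and 11695.3 against 10203.0 and 10557.5. Their mean log2 difference was -0.06 with a within-group SD of 0.11 (exact permutation p = 1.0), and it was 0.04 without wild-type replicate 2. The 3′ minus 5′ difference, a measure of RNA length, ran from -0.38 to -0.35 over the 4 arrays.

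The pyruvate dehydrogenase kinases switch off that enzyme and so hold pyruvate back from the mitochondria. Of the kinase genes in the set, Pdk3 fell, and Pdk1 fell only at its dimmer probe set. Pdk3 read 510.0 and 469.6 in wild-type and 298.7 and 280.4 in deficient cultures. It fell 1.69-fold (log2 change -0.71, SE 0.15, adjusted p = 0.00984). Pdk3 is X-linked, and its change was -0.73 within replicate number 1 and -0.70 within number 2, whose pools differed in sex. Pdk1, a HIF-1 target, fell at 1423748_at, from 616.9 and 698.8 to 369.5 and 427.7 (-0.69, SE 0.15, adjusted p = 0.0103). Its brighter probe set read 1220.4 and 1316.7 against 1200.9 and 913.6 and did not pass (-0.27, adjusted p = 0.219).

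In the pentose phosphate pathway, 1 of 11 tested probe sets rose (9.09%) and 0 fell. Over all tested probe sets 12.8% were higher and 11.4% lower, so the share that rose lay near the background. Rpia, which makes ribose 5-phosphate, read 754.5 and 608.2 in wild-type and 1012.6 and 917.2 in deficient cultures. It rose 1.42-fold without overlap (log2 change 0.49, SE 0.14, adjusted p = 0.0342), a call lost without deficient replicate 1 (adjusted p = 0.142) or wild-type replicate 2 (0.169). The lactonase gene Pgls read 1875.1 and 1741.7 against 1525.0 and 1518.2, with no overlap, and did not pass (-0.24, adjusted p = 0.131). Taldo1, transaldolase, had higher signals on both deficient arrays (7166.8 and 6822.3 against 5816.3 and 6706.4; 0.16, adjusted p = 0.342). The dehydrogenase Pgd changed by 0.03 to 0.17 over 4 probe sets, the transketolase Tkt by -0.21 and -0.01, and the epimerase Rpe by -0.12 and -0.06, with adjusted p from 0.335 to 0.977. The bright Tkt probe set read 9043.2 and 11656.8 against 9427.7 and 8408.5, so wild-type replicate 2 stood above the other arrays. Without wild-type replicate 1 this Tkt probe set passed (-0.39, adjusted p = 0.0107). Another Rpe probe set was below the filter, with signals from 2.1 to 25.5.

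In glycogen turnover, the phosphorylase isoforms went apart. Pygl, the liver-type phosphorylase that releases glucose units, read 781.5 and 737.9 in wild-type and 468.6 and 464.5 in deficient cultures. It fell 1.63-fold (log2 change -0.68, SE 0.13, adjusted p = 0.00618). Pygb, the brain-type phosphorylase, read 421.7 and 363.4 against 472.6 and 552.3, which do not overlap, and did not pass (0.37, SE 0.15, adjusted p = 0.124). Pgm2, a mutase of sugar phosphates, read 867.6 and 851.9 against 567.6 and 561.1 and fell 1.52-fold (-0.59, SE 0.12, adjusted p = 0.00913). Pgm1, outside the set, read 452.7 and 457.7 against 365.0 and 423.8, with no overlap, and did not pass (-0.20, adjusted p = 0.373).

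Glycogen synthase Gys1 fell at 1450196_s_at, from 160.5 and 160.3 to 27.7 and 83.4 (-1.32, SE 0.35, adjusted p = 0.0275). The deficient arrays differed widely there and deficient replicate 1 lay near the pseudocount. Probe sets marked _s_at can match more than 1 gene. Without deficient replicate 1 the change was -0.78 (adjusted p = 0.135), and without deficient replicate 2 it was -1.85. With a pseudocount of 100 it was -0.77 (adjusted p = 0.0185). The brighter Gys1 probe set read 201.6 and 178.7 against 131.6 and 169.7 (-0.30, adjusted p = 0.349). Ugp2, which makes UDP-glucose for glycogen, had 5 probe sets with changes from -0.49 to 0.36. Only 1434485_a_at passed (1052.8 and 1014.1 against 1298.9 and 1373.9; 0.36, adjusted p = 0.0426), and it was lost when any single array was left out. The branching enzyme Gbe1 overlapped (237.7 and 220.4 against 228.0 and 214.5; -0.04, adjusted p = 0.887).

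Gpd2 and Hif1a rose. Gpd2, the mitochondrial glycerol phosphate dehydrogenase that passes electrons from cytosolic NADH to the respiratory chain, read 923.4 and 824.3 in wild-type and 1205.1 and 1215.9 in deficient cultures (1.39-fold, log2 change 0.46, SE 0.12, adjusted p = 0.0217). Hif1a, the oxygen-regulated subunit of HIF-1, read 1483.1 and 1262.9 against 1847.4 and 1741.1 (1427418_a_at, 1.31-fold, log2 change 0.38, SE 0.12, adjusted p = 0.0461). Gpd2 was lost under 4 of the 12 alternatives and Hif1a under 7. Other Hif1a probe sets did not pass (0.34, adjusted p = 0.248, and 0.29, adjusted p = 0.591), and 1431981_at was below the filter, with signals from 3.0 to 24.5. HIF-1 is controlled mainly through the stability of the Hif1a protein, which arrays do not measure.

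Genes of the HIF-1 pathway outside the set were counted beside Hif1a. Of 27 listed, 22 were measured and 16 tested, and 3 fell, 0 rose and 13 did not pass in limma (median change -0.11). Over all genes the shares were 11.9% lower and 12.9% higher. At an unadjusted p under 0.05, 3 were lower and 0 higher, where the shares over all genes were 17.9% and 19.7%. The histone demethylase gene Kdm3a read 1095.7 and 1012.8 against 480.4 and 428.1 (-1.18, adjusted p = 0.000625), and the mitophagy receptor gene Bnip3 read 738.2 and 656.4 against 374.8 and 420.3 (-0.78, adjusted p = 0.00542). The growth factor gene Vegfa read 233.9 and 328.9 against 147.2 and 114.4 and fell by 0.97 (adjusted p = 0.0159), a call lost without wild-type replicate 2 or deficient replicate 2.

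Of 63 further genes of glucose and sugar phosphate metabolism, 47 were measured and 33 tested, and 6 fell, 0 rose and 27 did not pass in limma (median -0.19, beside 0.03 over all genes by their brightest tested probe set). Over all genes 11.9% were lower and 12.9% higher. At an unadjusted p under 0.05, 10 were lower and 0 higher, beside 17.9% and 19.7% of all genes. Slc37a2, a sugar phosphate transporter, read 5807.7 and 7245.4 against 803.1 and 1408.1 (-2.58, SE 0.23, adjusted p = 0.000264). Pfkfb2, which like Pfkfb3 sets the level of the phosphofructokinase activator, read 294.2 and 216.1 against 50.5 and 82.3 (-1.64, adjusted p = 0.00329). Galt of galactose metabolism (-1.17, adjusted p = 0.00139), the muscle enolase Eno3 (-1.05, adjusted p = 0.00600), Gfpt1, the entry enzyme of hexosamine synthesis (-0.85, adjusted p = 0.00740), and Gnpda1 (-0.66, adjusted p = 0.0455) also fell. Gnpda1 did not pass without deficient replicate 1.

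Isoform pairs that share a step were compared within each array, 8 pairs in all, each gene at its brightest tested probe set. In 7 pairs the difference did not overlap between genotypes. Among all single tested probe sets, 28.8% were lower and 34.4% higher in deficient cultures without overlap. No such share was computed for pairs. The phosphofructokinase pairs share their probe sets, so the pairs are not independent comparisons. After Hk1 and Hk2, Pygl against Pygb changed the most: the difference was 0.85 and 0.98 in wild-type and -0.01 and -0.24 in deficient cultures, a shift of -1.04 (within-group SD 0.13). Aldoa against Aldoc went from 2.85 and 3.07 to 3.78 and 4.00 (0.93, SD 0.15), since Aldoc changed more than Aldoa. Pfkl against Pfkp shifted by 0.82 (SD 0.18) and Pfkl against Pfkm by 0.49 (SD 0.05), while Pfkm against Pfkp shifted by 0.33 (SD 0.23). The last ran from 0.11 without wild-type replicate 2 to 0.56 without wild-type replicate 1. At its dimmer probe set Pfkp changed by -0.42, less than Pfkm (-0.54). The direction of the shift between Pfkm and Pfkp thus depended on the Pfkp probe set. Pdk1 against Pdk3 shifted by 0.44 (SD 0.19), at Pdk1's brighter probe set, and by 0.29 without deficient replicate 1. At its dimmer probe set Pdk1 changed by -0.69, close to Pdk3 (-0.71). Slc2a1 against Slc2a3 overlapped (0.16, SD 0.39) and turned sign without wild-type replicate 1 (-0.13) or deficient replicate 2 (-0.10). Exact two-sided permutation p was 0.333 for the 7 pairs and 0.667 for Slc2a1 against Slc2a3 (0.381 and 0.667 adjusted over 8 pairs), and this design cannot go below 0.333.

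**Figure D3:**
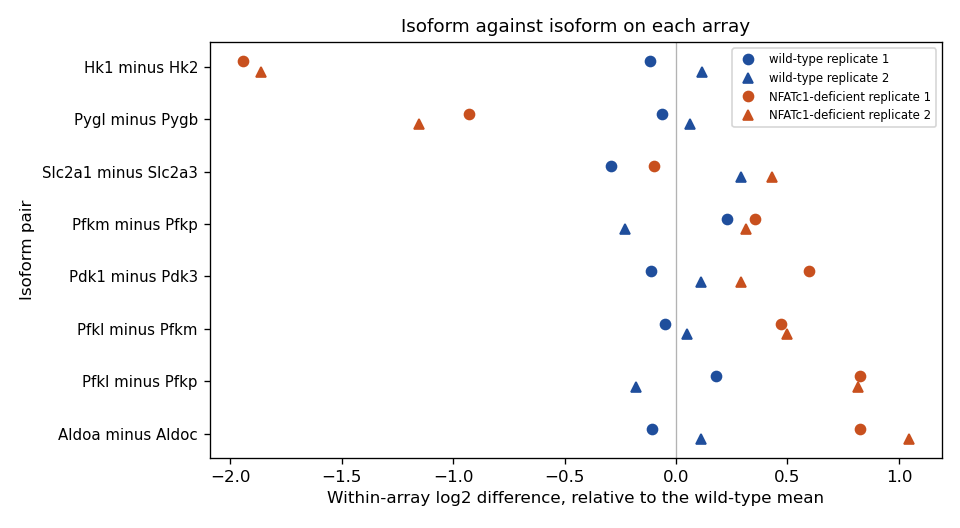
Within-array log2 difference between the isoforms of each of 8 pairs, relative to the mean of the wild-type arrays (x axis), with 1 point per array. Hk1 against Hk2 (-1.90) and Pygl against Pygb (-1.04) lie left of the wild-type points, Aldoa against Aldoc (0.93) and Pfkl against Pfkp (0.82) right of them, and Slc2a1 against Slc2a3 overlaps.

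Of the 12 probe sets that fell, 8 kept their call in all 12 alternatives: both of Hk1, Aldoc 1451461_a_at, Pfkp 1416069_at, Pdk1 1423748_at, Pdk3, Pygl and Pgm2. Of the 7 that rose, 0 did. Without deficient replicate 1, limma called 8 of the 12 falls and 0 rises, although 8 members were higher at an unadjusted p under 0.05. Without the variance trend limma also called 0 rises, with 7 at an unadjusted p under 0.05. The log2 changes of these 7 ran from 0.30 to 0.70 within replicate number 1 and from 0.35 to 0.69 within number 2. Deficient replicate 1 is the array with the high granulocyte marker sum, and the part of those markers in the rises was not tested.

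**Figure D4:**
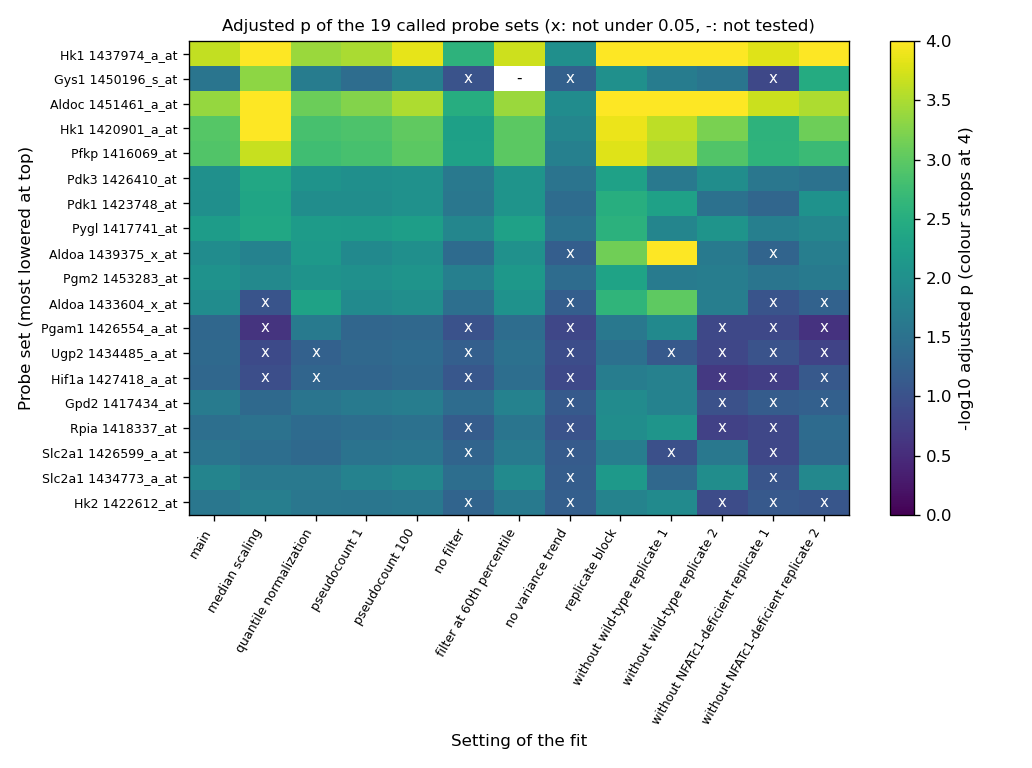
Adjusted p (colour, -log10) of the 19 called probe sets (rows, most lowered at the top) in the fit as reported and under 12 alternatives (columns). Crosses mark an adjusted p not under 0.05 and a dash a probe set not tested; the Hk1, Aldoc, Pfkp, Pdk1, Pdk3, Pygl and Pgm2 rows hold no cross, and each of the 7 risen probe sets holds a cross without deficient replicate 1.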

How the data were processed

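Gene expression was measured on 4 Affymetrix arrays, 2 wild-type and 2 NFATc1-deficient. The deposited values were MAS5 signal intensities on a linear scale, 1 column per array, per the submitters' processing notes. No MAS5 version is given in the sources used here, and detection calls were not used. With the outer 2% at each end trimmed off, array means were 500.186 to 500.211. Probe sets were named from the supplied platform annotation (20393 with 1 symbol, 691 with several, 1606 with none), and all 63 member probe sets matched RefSeq names by Entrez number. Signals were analysed as log2(signal + 23.3), the 25th percentile of all values. After 64 control probe sets were left out, 13577 remained whose mean signal exceeded the 40th percentile. They were fitted with limma 3.58.1 in R 4.3.3 (lmFit, eBayes with an intensity trend, two-sided), with Benjamini-Hochberg adjustment over all of them. On simulated data for this comparison with 13577 probe sets, 9 of 50 changes of 1.5-fold, 33 of 50 of 2-fold and 48 of 50 of 4-fold were recovered. The simulated fit made 147 calls, where the data gave 1552 lower and 1740 higher. Its Benjamini-Hochberg cutoff was therefore stricter, and the recovered counts do not give the sensitivity in the data. A gene with several probe sets was represented by its brightest tested one. All members were named, and of other lists the up to 8 genes past the threshold with the largest change, with Pgm1 added beside Pgm2. Markers were given as counts and sums. Members and lists were chosen with earlier results of these data known. The number of arrays limits precision.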

Additional observations from a re-analysis of the deposited data

How the results depend on the processing

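Alternatives covered scaling, pseudocount, filter, variance trend, probe set choice, a replicate block and leaving out each array. Falls numbered 8 to 15 in all, and 8 to 12 of the original 12 were among them. Rises numbered 2 without a filter, 0 without the variance trend and 0 to 6 without single arrays, of which 0 to 5 were among the original 7. Risen genes, 5 as reported, numbered 3 with the mean of all tested probe sets of a gene, 2 without a filter, 0 without the variance trend and 0 to 5 without single arrays. In limma on the mean of all tested probe sets of a gene, Slc2a1 (adjusted p = 0.0699) and Hif1a (0.232) did not pass. Aldoa (-0.47, adjusted p = 0.0258) and Pdk1 (-0.48, adjusted p = 0.0173) then fell. With replicate number as a block, 14 members fell and 7 rose. The added falls were Aldoa 1416921_x_at (adjusted p = 0.0241) and 1434799_x_at (0.0246). The labels do not say that numbers pair the pools, and same-numbered arrays deviated together weakly over tested probe sets (r = 0.13). The difference between Hk1 and Hk2 was -1.74 with a pseudocount of 100. No called probe set changed sign. Uncalled ones did. With quantile normalization these were Pfkl 1450269_a_at (-0.0036), Tpi1 1415918_a_at (0.013) and Pkm (0.030), and with median scaling Tkt 1451015_at (0.0049) and Ugp2 1451742_a_at (0.0094). Without single arrays the log2 change ran from -0.17 to 0.028 for Slc2a1 1426600_at, from -0.19 to 0.084 and from -0.079 to 0.12 for Pfkl, from -0.11 to 0.12 and from -0.12 to 0.026 for Tpi1, from -0.31 to 0.85 for Pgk1 1439435_x_at and from -0.16 to 0.058 for Pkm. It ran from -0.036 to 0.10, -0.10 to 0.19, -0.031 to 0.38 and -0.037 to 0.15 for the Pgd probe sets, from -0.17 to 0.056 for Rpe, from -0.060 to 0.048 for Tkt, from -0.094 to 0.0045 for Gbe1, from -0.021 to 0.018 and -0.031 to 0.15 for Ugp2, and from -0.26 to 0.84 for Hif1a 1448183_a_at. The causes of these changes were not tested. Detection calls were not used, so the standing of dim probe sets against background is unknown.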
